A study of Mus musculus with 16 samples.

Results

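The genes of the methionine cycle and of transsulfuration in mouse liver are described here across diet and feeding state. They are 10 genes of the 46078 in the count table, picked out by symbol through their Ensembl identifiers: Mat1a, Gnmt, Pemt, Nnmt, Ahcy, Bhmt, Bhmt2, Chdh, Cbs and Cth. The list was chosen with earlier results of these data known. All 10 were found and all 10 passed the filter on low counts. Polyadenylated RNA from whole liver was sequenced in 16 libraries, 4 in each of 4 groups. Every mouse was of the strain that the labels spell C56B6/J, carried no transgene or deletion according to them, and had been on its diet for 16 weeks. The CD fed and CD fast groups received a control diet (CD) and the HFD fed and HFD fast groups a high-fat diet (HFD) with 60% of calories from fat. Fed mice ate ad libitum and fasted mice went without food for 16 h before the liver was taken. The study's methods state male mice. The methionine and choline content of the diets is not given in the sources used here. Libraries held 41364448 to 57583153 counts, and each of the 10 genes had at least 1634 counts in every library. Some other genes named below were counted less deeply, down to 20 counts for Mthfd2 and 0 for Gm15622. HFD fed 4 and HFD fast 4 stood apart in collagen genes of stellate cells, with Col1a1 at 21.1 and 24.4 CPM against 1.32 to 8.43 CPM in the other 14 libraries, and HFD fed 4 also held the bile duct marker Krt19 at 10.5 CPM against at most 0.914 CPM elsewhere. The same libraries were the lowest of their groups for Cyp2e1 and Cyp1a2, markers of hepatocytes around the central vein, with Cyp2e1 at 4349 CPM against 8757 to 8803 CPM in HFD fed and 6619 against 10692 to 14122 CPM in HFD fast. Without both of them, a refit chosen after seeing the data, 8 of the 10 genes passed for fasting in CD, 3 for fasting in HFD, 3 for HFD in fed mice, 2 for HFD in fasted mice and 0 for the interaction, where the same refit called 4128, 1029, 1099, 645 and 226 of all genes. CD fed 1 was also the lowest of its group for Cyp2e1 and Cyp1a2, with Cyp2e1 at 4044 CPM against 6257 to 6399 CPM. It was the lowest of its group as well for Glul, Oat, Slc1a2, Rhbg, Axin2 and Lgr5, the other markers used for these hepatocytes. It held the macrophage marker Adgre1 at 42.3 CPM against 15.3 to 20.6 CPM in the rest of its group. Among CD fed libraries it was the lowest for Mat1a, Gnmt, Pemt, Ahcy, Bhmt, Bhmt2, Chdh and Cth and the highest for Cbs. Nothing in the labels says that libraries numbered 1 to 4 came from separate mice, and p-values measure the spread between these libraries.

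In hepatocytes, methionine is joined to ATP to give S-adenosylmethionine, the methyl donor of most methylation reactions. Methyltransferases leave S-adenosylhomocysteine, which is split to homocysteine and adenosine. Homocysteine is then either methylated back to methionine, with betaine made from choline or with folate as the methyl source, or passed through cystathionine to cysteine, the route called transsulfuration. The liver carries much of this traffic, and it holds isoforms of several of the enzymes that most other tissues lack.

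The 10 genes took up a larger share of the library after fasting on both diets. Their summed counts made up 0.999% ± 0.120 (SD, n = 4) of the library total in CD fed and 2.16% ± 0.369 in CD fast, against 0.944% ± 0.111 and 1.65% ± 0.268 in the fed and fasted HFD groups. The lowest fasted library, at 1.28%, lay above the highest fed library, at 1.13%. Mat1a and Bhmt together supplied 54.0% of these counts fed and 74.7% fasted on CD, and 56.0% and 73.8% on HFD. Levels are given below as CPM, the usual unit of counts relative to the scaled library size, which compares 1 gene between libraries. For levels of different genes, CPM was divided by the kilobases of annotated exon of the gene. On that per-length scale Gnmt was the highest of the 10 in CD fed with 1317 CPM per kb and Mat1a the highest in CD fast (2976 CPM per kb), HFD fed (1211) and HFD fast (1917). Chdh and Nnmt were the lowest in CD fed with 46.9 and 32.7 CPM per kb.

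**Figure D1:**
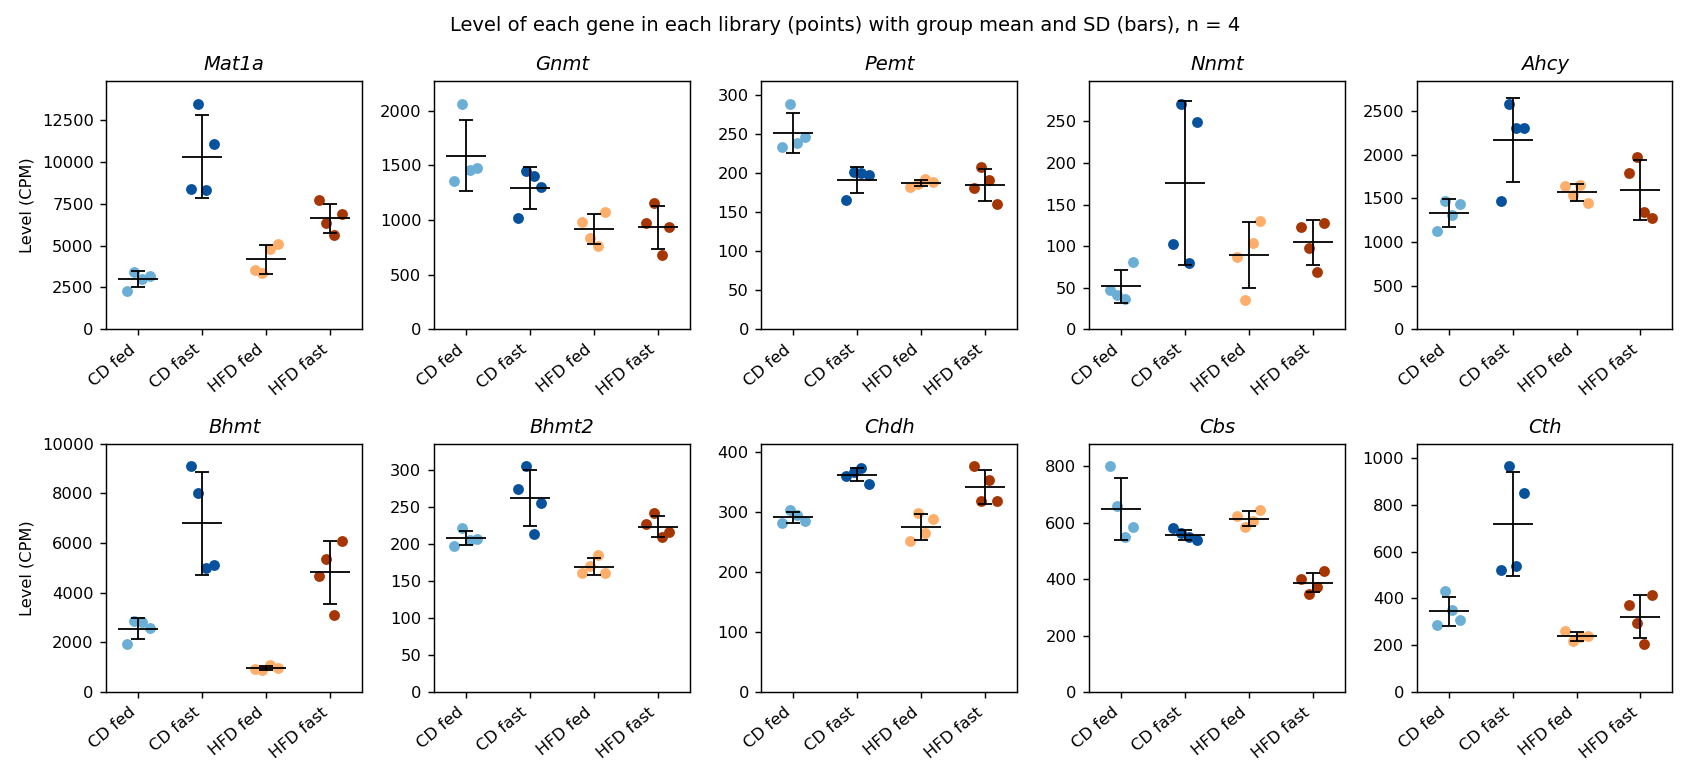
Level of the 10 genes in each of the 16 libraries, in CPM on linear axes that start at 0, with 1 panel per gene. Points are libraries and bars are the mean and SD of the 4 libraries of a group. Mat1a and Bhmt are high in both fasted groups, and Cbs is lowest in HFD fast. The CD fast libraries of Mat1a, Nnmt, Cth and Bhmt lie in a lower and a higher pair. The higher pair is CD fast 2 and CD fast 4 for Mat1a, Nnmt and Cth, and CD fast 1 and CD fast 2 for Bhmt.

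Fasting on the control diet changed 8 of the 10 genes, the high-fat diet lowered 3 genes in fed mice and 2 in fasted mice, and 1 gene passed the test for a fasting change that differed between diets. Each gene was tested in 1 model of all 15075 genes that passed the filter (edgeR's quasi-likelihood test with Benjamini-Hochberg adjustment over all of them), and adjusted p-values below are from that model. For fasting in CD, 25.2% of all genes passed an adjusted p of 0.05, 13.7% higher and 11.5% lower. Of the 10, Mat1a, Nnmt, Ahcy, Bhmt, Bhmt2, Chdh and Cth rose, Pemt fell, and Gnmt and Cbs did not pass. For fasting in HFD, 8.86% of all genes passed, 4.78% higher and 4.07% lower, and of the 10 Mat1a, Bhmt, Bhmt2 and Chdh rose and Cbs fell. For HFD in fed mice, 7.50% of all genes passed, 3.28% higher and 4.22% lower, and Gnmt, Pemt and Bhmt fell. For HFD in fasted mice, 7.70% of all genes passed, 3.05% higher and 4.65% lower, and Cbs and Cth fell. For the difference between the fasting changes on the 2 diets, 2.59% of all genes passed, 1.23% positive and 1.36% negative, and Mat1a was the 1 gene of the 10 that did. The libraries of the compared groups did not overlap for 6 genes for fasting in CD, 5 for fasting in HFD, 5 for HFD in fed mice and 3 for HFD in fasted mice, where 25.4%, 16.7%, 15.7% and 14.0% of all genes had no overlap.

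The median log2 fold change of the 10 was 0.52 for fasting in CD, 0.27 for fasting in HFD, -0.19 for HFD in fed mice and -0.48 for HFD in fasted mice, against -0.01, 0.01, 0.01 and 0.01 over all genes tested. In fasted mice all 10 estimates were lower on HFD than on CD, but with scaling by total counts in place of the trimmed mean of M-values (TMM) those of Pemt and Chdh turned to 0.11 and 0.07. That scaling moved the median of all genes in this comparison to 0.17 and the calls over all genes from 460 higher and 701 lower to 1851 higher and 250 lower. It also turned the calls over all genes from 2066 higher and 1731 lower to 1628 and 2045 for fasting in CD, from 721 and 614 to 894 and 429 for fasting in HFD, from 495 and 636 to 916 and 415 for HFD in fed mice, and from 185 and 205 to 306 and 134 for the interaction. The 4 comparisons share groups in pairs, so that a group's level enters 2 of them, and their values are given side by side without a test between them other than the interaction.

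**Figure D2:**
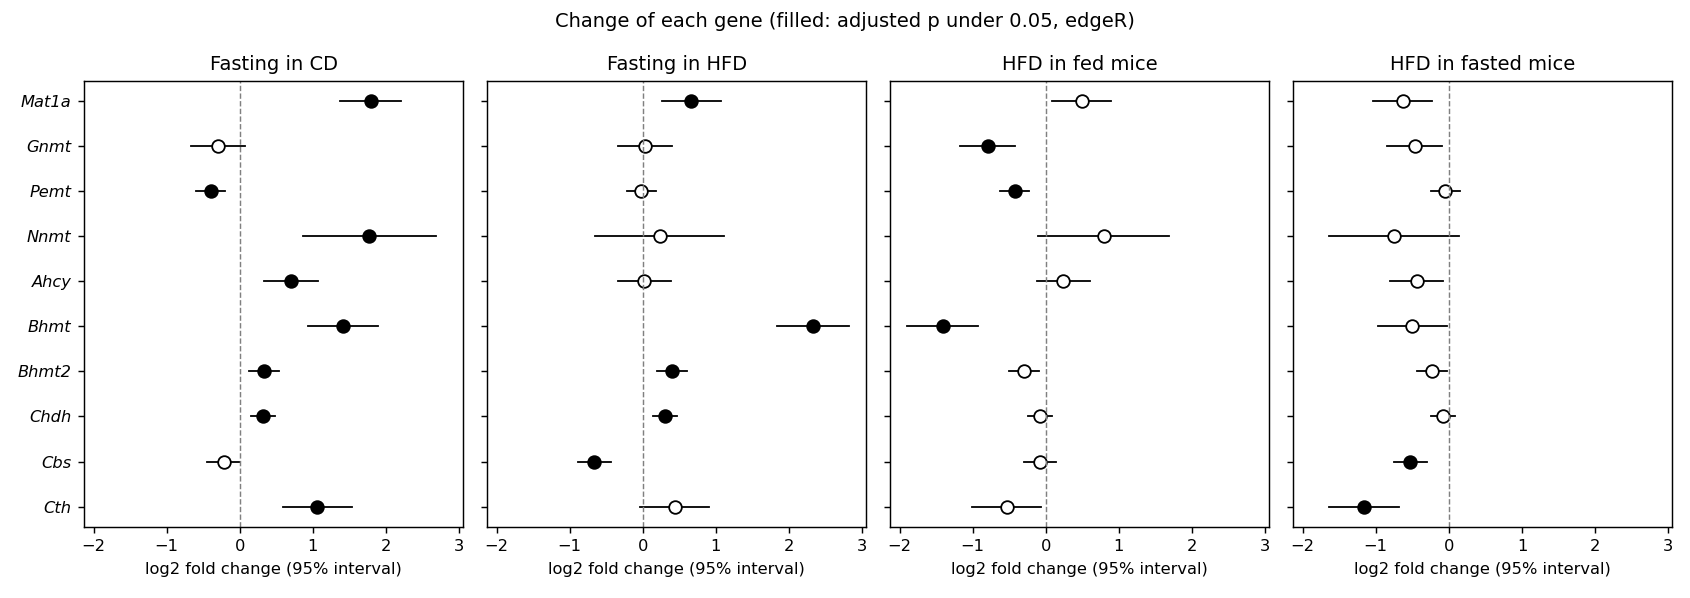
Log2 fold change of each gene with its 95% interval in 4 comparisons, on 1 linear axis, from the model of all 16 libraries. Filled points passed an adjusted p of 0.05 and open points did not. Of the 10, Bhmt has the largest estimate for fasting in HFD (2.33) and the lowest for HFD in fed mice (-1.41).

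Mat1a (ENSMUSG00000037798, chr14:41105035-41124412, plus strand of GRCm38) encodes the methionine adenosyltransferase of adult liver, which makes S-adenosylmethionine. Its level was 2309, 3408, 3021 and 3205 CPM in the CD fed libraries and 8384, 13499.5, 8321 and 11081 CPM in the CD fast libraries. It was 3545, 3375, 4774 and 5104 CPM in HFD fed and 7714, 6344, 5653 and 6889 CPM in HFD fast. Every CD fast library lay above every HFD fast library, and every HFD fast library above every fed library, whereas HFD fed and CD fed overlapped. Fasting raised Mat1a 3.46-fold in CD (log2 fold change 1.79, SE 0.20, adjusted p = 2.48e-05) and 1.58-fold in HFD (log2 fold change 0.66, SE 0.19, adjusted p = 0.0415). The fasting change was smaller on HFD by 1.13 on the log2 scale (SE 0.27, adjusted p = 0.0391 for the interaction). Mat1a also stood 1.55-fold lower in HFD fast than in CD fast and 1.41-fold higher in HFD fed than in CD fed, but neither passed (adjusted p = 0.0526 and 0.129). The first of these passed with DESeq2 (adjusted p = 0.00841) and without CD fast 3, CD fed 1 or HFD fed 4 (0.0432, 0.0467 and 0.0456). Both calls that involve HFD are close to the threshold. When libraries were dropped one at a time, the rise in HFD passed only without CD fast 1, CD fast 2, CD fast 3, CD fed 1, CD fed 2 or HFD fed 4 and failed in 10 of 16 refits, at worst without HFD fed 1 (adjusted p = 0.128). The interaction passed only without CD fast 1, CD fast 3, HFD fast 1, HFD fed 1 or HFD fed 2 and failed in 11 of 16, at worst without HFD fast 3 (adjusted p = 0.0831). Without both HFD libraries numbered 4 neither passed (adjusted p = 0.0530 and 0.0799), and with the replicate block the interaction did not (adjusted p = 0.0506). The rise in HFD also failed with no filter on low counts (adjusted p = 0.0529) and in a fit of the 2 groups alone (0.0599).

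Mat2a encodes the methionine adenosyltransferase of most other tissues, and its relation to Mat1a was followed as a ratio. On CD, Mat2a was at 70.1 ± 6.56 CPM (SD, n = 4) fed and 100.4 ± 11.5 CPM fasted, and on HFD at 88.4 ± 4.41 CPM fed and 104 ± 8.33 CPM fasted. It rose with fasting in CD (log2 fold change 0.52, adjusted p = 0.000979) and with HFD in fed mice (0.34, adjusted p = 0.0368), and the second call was lost in 7 of 16 refits with a library dropped, at worst without CD fed 2 (adjusted p = 0.108), and with no filter or the replicate block. The ratio of Mat1a to Mat2a CPM, not corrected for length, averaged 42.7 ± 7.03 fed and 106 ± 39.0 fasted on CD, and 47.7 ± 10.6 fed and 64.2 ± 8.38 fasted on HFD. CD fast 2 stood at 162 and the other 3 CD fast libraries between 78.2 and 103. The log2 ratio was higher in CD fast than in CD fed by 1.26 and lower in HFD fast than in CD fast (difference -0.67), both without overlap of libraries and both at 0.0286 in an exact two-sided permutation test, the smallest p that 4 against 4 libraries can give. Adjusted over the 4 comparisons these became 0.0571. For fasting in HFD the difference was 0.45 (exact permutation p = 0.0857) and for HFD in fed mice 0.15 (exact permutation p = 0.486).

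**Figure D3:**
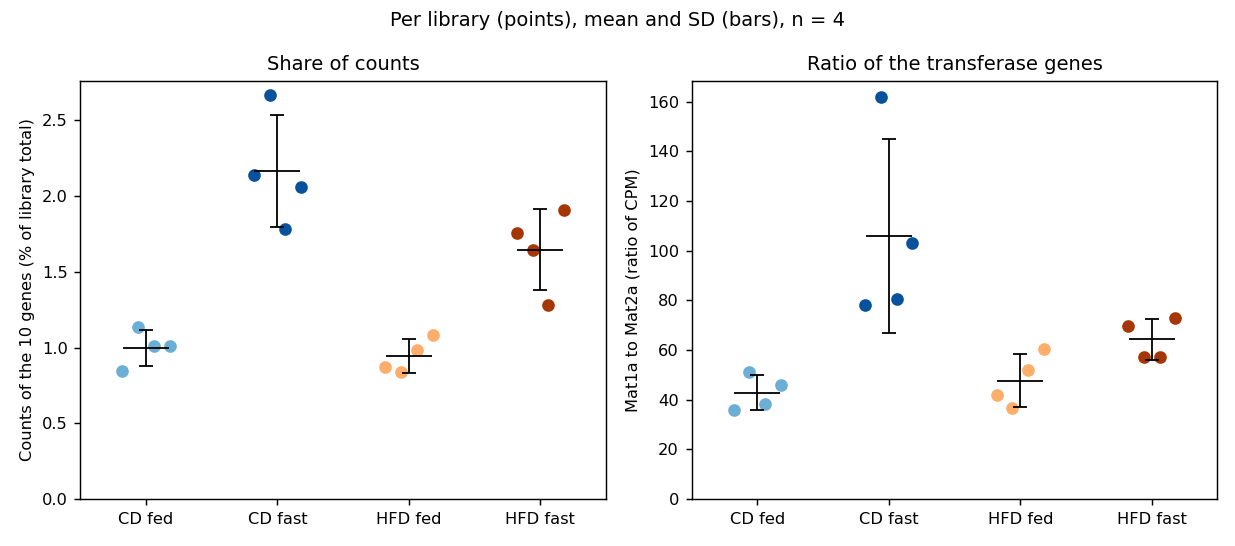
Summed counts of the 10 genes as a percentage of the library total (left) and the ratio of Mat1a to Mat2a CPM (right) in each library, on linear axes that start at 0. Points are libraries and bars are the mean and SD of 4 libraries. Both measures are highest in CD fast, at 2.16% and 106 on average.

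Gnmt, Pemt and Nnmt encode methyltransferases that use S-adenosylmethionine. Gnmt (ENSMUSG00000002769, chr17:46725664-46729168, minus strand) encodes glycine N-methyltransferase, an abundant liver enzyme that consumes S-adenosylmethionine to make sarcosine. Its level was 1358, 2065, 1454 and 1478 CPM in CD fed, and 983, 839, 766 and 1074 CPM in HFD fed. The lowest CD fed library was above the highest HFD fed library. HFD lowered Gnmt 1.74-fold in fed mice (log2 fold change -0.80, SE 0.18, adjusted p = 0.0135). Without the high library CD fed 2 the change was -0.64 with an adjusted p of 0.0536, and without HFD fed 3 it was -0.72 with 0.0512. Gnmt held 1019 to 1446 CPM in CD fast and 676 to 1151 CPM in HFD fast, and fasting gave log2 fold changes of -0.30 in CD (adjusted p = 0.232) and 0.03 in HFD (adjusted p = 0.938). In the order CD fed, CD fast, HFD fast, HFD fed, each group overlapped the next.

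Pemt (ENSMUSG00000000301, chr11:59970614-60046489, minus strand) encodes phosphatidylethanolamine N-methyltransferase, which makes phosphatidylcholine and is a main user of methyl groups in liver. It was at 232, 288, 238 and 246 CPM in CD fed, above all of the other 12 libraries, which lay between 159.7 and 208 CPM. Fasting in CD lowered Pemt 1.32-fold (log2 fold change -0.40, SE 0.09, adjusted p = 0.00645) and HFD in fed mice lowered it 1.34-fold (log2 fold change -0.42, SE 0.09, adjusted p = 0.0130). The second call was lost without CD fed 2 (adjusted p = 0.0520). On HFD, fasting gave -0.02 (95% interval -0.22 to 0.18, adjusted p = 0.924).

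Nnmt (ENSMUSG00000032271, chr9:48591877-48605153, minus strand) encodes nicotinamide N-methyltransferase, which methylates nicotinamide, and its libraries were the most variable of the 10 in every group but HFD fast, where the coefficient of variation was 26.2% for Nnmt, 26.4% for Bhmt and 28.3% for Cth. It was at 47.4, 41.5, 36.0 and 81.1 CPM in CD fed and 103, 271, 79.5 and 250 CPM in CD fast. CD fast 2 and CD fast 4 were high, and the lowest CD fast library fell just below the highest CD fed library. The rise with fasting in CD was 3.41-fold (log2 fold change 1.77, SE 0.43, adjusted p = 0.00757), and without CD fast 2 it still passed (adjusted p = 0.0283). Nnmt was at 35.8 to 130 CPM in HFD fed and 68.5 to 128 CPM in HFD fast, with a log2 fold change of 0.23 for fasting in HFD and a 95% interval of -0.65 to 1.11. The interaction estimate for Nnmt, -1.54, was larger in size than that of Mat1a but did not pass (SE 0.59, adjusted p = 0.160).

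Ahcy (ENSMUSG00000027597, chr2:155059310-155074497, minus strand) encodes adenosylhomocysteinase, which removes S-adenosylhomocysteine. It was at 1125, 1467, 1305 and 1435 CPM in CD fed and 1471, 2587, 2306 and 2303 CPM in CD fast, with the lowest fasted library just above the highest fed library. Fasting in CD raised it 1.63-fold (log2 fold change 0.70, SE 0.17, adjusted p = 0.00827). On HFD the means were 1571 ± 96.7 CPM (SD, n = 4) fed and 1596 ± 345 CPM fasted, with a log2 fold change of 0.02 (95% interval -0.34 to 0.39). The interaction was -0.68 (adjusted p = 0.135). For HFD in fasted mice the log2 fold change was -0.44 (adjusted p = 0.119). Without CD fast 1, the lowest of its group, that change was -0.59 and passed (adjusted p = 0.0373). The interaction of Ahcy in the same refit was -0.83 and also passed (adjusted p = 0.0451).

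Bhmt (ENSMUSG00000074768, chr13:93616675-93637961, minus strand) and Bhmt2 (ENSMUSG00000042118, chr13:93655720-93674302, minus strand) lie next to each other, with 17758 bases between them. Bhmt encodes betaine-homocysteine S-methyltransferase, which returns homocysteine to methionine with betaine as methyl donor, and Bhmt2 a related enzyme that uses S-methylmethionine. The 250 bases before the RefSeq start of both genes are shown because the estimates of the neighbours had the same sign in the 4 comparisons but very different sizes, together with those of Cbs, which fell. They are read on the strand of the gene from RefSeq on GRCm38.p6, 5′ to 3′, and capitals mark each match to AGGTCA, the half-site of many nuclear receptors, searched on both strands after the Bhmt sequence had been seen.
Bhmt, chr13:93637759-93638008: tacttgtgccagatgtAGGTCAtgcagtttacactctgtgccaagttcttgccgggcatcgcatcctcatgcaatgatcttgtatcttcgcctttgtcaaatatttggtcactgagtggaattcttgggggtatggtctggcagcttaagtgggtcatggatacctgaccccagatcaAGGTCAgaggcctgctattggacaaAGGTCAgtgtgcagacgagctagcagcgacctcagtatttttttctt
Bhmt2, chr13:93674303-93674552: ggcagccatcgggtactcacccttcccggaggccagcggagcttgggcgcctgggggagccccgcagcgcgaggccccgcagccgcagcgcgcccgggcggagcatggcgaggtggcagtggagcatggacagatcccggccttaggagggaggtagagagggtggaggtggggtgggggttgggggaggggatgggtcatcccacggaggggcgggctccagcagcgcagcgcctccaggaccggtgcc
Cbs, chr17:31637206-31637455: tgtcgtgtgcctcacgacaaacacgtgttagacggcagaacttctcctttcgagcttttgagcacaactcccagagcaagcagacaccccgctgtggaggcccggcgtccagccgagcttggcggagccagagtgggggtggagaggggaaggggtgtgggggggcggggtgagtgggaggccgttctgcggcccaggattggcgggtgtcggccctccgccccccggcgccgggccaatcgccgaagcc
The Bhmt window held 3 matches, at 234, 72 and 47 bases before the start, a number reached or passed by 0.131% of 32851 windows of this length, whereas 14.0% held at least 1. No match was in the windows of Bhmt2 and Cbs. The Bhmt window had 48.0% GC and 5 CpG, the Bhmt2 window 74.0% GC and 20 CpG and the Cbs window 68.0% GC and 21 CpG, against medians of 52.4% and 6 over all windows. GENCODE places the start of Bhmt 203 bases further upstream, inside this window, so that by that annotation 1 of the 3 matches lies before the start and the others within the transcript, and that of Cbs 33 bases further upstream. Windows were at hand for 7 of the 10 genes. Gnmt and Ahcy held 1 match each. In the 10 windows of these 7 genes, 4 other motifs searched on both strands had no match: GTAAACA of FOXO and FOXA factors, TGATGNAA of C/EBP and ATF factors, the cyclic AMP response element TGACGTCA and CAAAGTCCA of HNF4, which 3.17%, 3.45%, 1.55% and 0.384% of all windows held. The glucocorticoid receptor half-site AGAACA, in 16.1% of all windows, had 1 match, in a window of Chdh. These are letters in a window and no measure of binding.

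Bhmt had the largest changes of the 10 for fasting in HFD and for HFD in fed mice. Its level was 1921, 2862, 2834 and 2593 CPM in CD fed and 915, 872, 1075 and 974 CPM in HFD fed. It was 9092, 8035, 4989 and 5104 CPM in CD fast and 4681, 5375, 3118 and 6092 CPM in HFD fast. Every fasted library was above every fed library and every CD fed library above every HFD fed library, whereas the fasted groups overlapped. In fed mice Bhmt was 2.66-fold lower on HFD (log2 fold change -1.41, SE 0.23, adjusted p = 0.00198). Fasting raised Bhmt 2.67-fold in CD (log2 fold change 1.41, SE 0.23, adjusted p = 0.000465) and 5.02-fold in HFD (log2 fold change 2.33, SE 0.23, adjusted p = 9.13e-05). In fasted mice the HFD change was -0.50 (SE 0.22, adjusted p = 0.168). The 2 fasting changes differed by 0.91 with a 95% interval of 0.25 to 1.58, which did not pass after adjustment over all genes (adjusted p = 0.124) and passed with DESeq2 (adjusted p = 0.0499).

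Bhmt2 stayed in a narrow range, from 160.3 to 305 CPM over the 16 libraries. It rose with fasting by 26.1% in CD (log2 fold change 0.33, SE 0.10, adjusted p = 0.0194) and by 31.9% in HFD (log2 fold change 0.40, SE 0.10, adjusted p = 0.0200). HFD fed libraries, at 160.3 to 185 CPM, lay below all CD fed libraries, at 198 to 221 CPM, but this change did not pass (log2 fold change -0.29, adjusted p = 0.0733). It passed with DESeq2 (0.0355), in a fit of the 2 groups alone (0.0402) and without CD fast 2 or CD fast 3 (0.0465 and 0.0369). The fasting call in CD was lost without CD fast 2 (adjusted p = 0.0659) or CD fed 1 (0.0543) and in a fit of the 2 groups alone (0.0585). That in HFD was lost without HFD fast 1 (0.0505), HFD fed 1 (0.0692) or both HFD libraries numbered 4 (0.0565). Across the 16 libraries log2 CPM of Bhmt and Bhmt2 had a Pearson r of 0.92, and of 0.65 after subtraction of group means, a description over libraries that share their scaling.

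Chdh (ENSMUSG00000015970, chr14:30009023-30040527, plus strand) encodes choline dehydrogenase, which starts the conversion of choline to betaine. It was at 283 to 303 CPM in CD fed and 348 to 374 CPM in CD fast, and at 251 to 299 CPM in HFD fed and 318 to 377 CPM in HFD fast, without overlap between fed and fasted libraries on either diet. Fasting raised it by 24.3% in CD (log2 fold change 0.31, SE 0.08, adjusted p = 0.00830) and by 23.9% in HFD (log2 fold change 0.31, SE 0.08, adjusted p = 0.0227). The call in HFD was lost without HFD fast 1, HFD fast 3, HFD fed 1 or HFD fed 3, with adjusted p of 0.0733, 0.0662, 0.0834 and 0.0671, and also with no filter on low counts (0.0599) and in a fit of the 2 groups alone (0.0742). HFD gave log2 fold changes of -0.08 in fed and in fasted mice, with 95% intervals of -0.24 to 0.08 and -0.25 to 0.08.

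Cbs and Cth encode the 2 steps of transsulfuration. Cbs (ENSMUSG00000024039, chr17:31608894-31637238, minus strand) encodes cystathionine beta-synthase, which commits homocysteine to the route. It was at 800, 660, 550 and 586 CPM in CD fed and 580, 563.5, 548 and 538 CPM in CD fast. It was at 623, 584, 605 and 645 CPM in HFD fed and 400, 348, 373 and 428 CPM in HFD fast. The HFD fast libraries were below all 12 others. With fasting in HFD Cbs fell by 36.9% (log2 fold change -0.67, SE 0.11, adjusted p = 0.00209) and was 1.44-fold lower in HFD fast than in CD fast (log2 fold change -0.53, SE 0.11, adjusted p = 0.01005). Fasting in CD gave -0.22 (SE 0.11, adjusted p = 0.141), and the difference between the fasting changes was -0.45 (SE 0.15, adjusted p = 0.116). Without CD fed 1, the highest of its group, that difference was -0.56 and passed (adjusted p = 0.0389), as it did with DESeq2 (0.0401). The call in fasted mice missed the threshold with scaling by total counts (adjusted p = 0.0517) and in a fit of those 2 groups alone (0.0509).

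Cth (ENSMUSG00000028179, chr3:157894248-157925077, minus strand) encodes cystathionine gamma-lyase, which releases cysteine and can make hydrogen sulfide. It was at 288, 431, 350 and 309 CPM in CD fed and 522, 964, 539 and 849 CPM in CD fast. It was at 261, 216, 236 and 238 CPM in HFD fed and 370.0, 295, 207 and 414 CPM in HFD fast. All CD fast libraries were above all others, with CD fast 2 and CD fast 4 the highest, the same libraries as for Mat1a and Nnmt. Fasting in CD raised Cth 2.09-fold (log2 fold change 1.06, SE 0.22, adjusted p = 0.00311), and in fasted mice Cth was 2.24-fold lower on HFD (log2 fold change -1.16, SE 0.22, adjusted p = 0.00825). In a fit of the 2 fasted groups alone the second change did not pass (adjusted p = 0.0642). Fasting in HFD gave 0.43 (95% interval -0.03 to 0.90, adjusted p = 0.230) and HFD in fed mice -0.54 (adjusted p = 0.155). The HFD fed libraries lay below all CD fed libraries, and in a fit of those 2 groups alone this change passed (adjusted p = 0.0357).

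Some of these genes share sequence or position with others, which limits how finely their counts can be read. In the annotated transcripts, 68.7% of the 50-base runs of Ahcy occur in another gene, mostly Gm4737 and the pseudogene Gm9826, to which 490 and 533 counts per library were assigned on average, 0.618% and 0.672% of the Ahcy count. For Bhmt the share was 26.1%, of which Gm5096 held most, with 588 counts on average, 0.332% of the Bhmt count. Bhmt2, Chdh and Cbs shared 5.93%, 8.75% and 1.25% of their runs, and Mat1a, Gnmt, Nnmt and Cth shared none. How reads that fit several genes were counted is not given in the sources used here. The antisense gene Gm15622 overlaps Bhmt exons by 187 bases on the other strand. It had 65 to 327 counts in CD fed against 0 to 2 in HFD fed, which makes it at least 49.7-fold lower in HFD fed with a floor of 3 counts per library, and 116 to 438 counts in CD fast against 5 to 40 in HFD fast. Cacna1d shares 589 exon bases with Chdh on the other strand and had 70.7 counts on average. Gm43314 lies within the span of Cth on the same strand. It was at 23.6 and 24.1 CPM in CD fast 2 and CD fast 4 and at 2.05 to 5.82 CPM in the other 14 libraries, so that the libraries high for Cth were also high for it. Without a known strand setting of the count, reads of these overlapping genes cannot be told apart from those of Bhmt and Chdh. The counts assigned to Gm15622 averaged 0.0583% of the Bhmt count and those assigned to Cacna1d 0.463% of the Chdh count.

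The genes most like each of the 10 over the 16 libraries were sought by Pearson correlation of log2 CPM among 11003 genes with a mean of at least 100 counts. For Mat1a they were Agpat3, Cyp4a10 and Ctcflos (r = 0.96, 0.96 and 0.95), and for Bhmt Gm5096, Abat and Smim19 (0.99, 0.96 and 0.95), of which Gm5096 shares sequence with it. Smim19 was also the nearest to Bhmt2 (0.94). Hgd and Fbp1 were nearest to Cth (0.94 and 0.93), Ggt6 and Hpd to Ahcy (0.95 and 0.93), Ebp and Sil1 to Pemt (0.94 and 0.93) and Serpinf1 to Gnmt (0.91). Tmprss2 was nearest to Nnmt (0.92), Gm11789 to Chdh (0.95) and Adnp2 to Cbs (0.92). Among the 10 themselves, Ahcy and Pemt had r = -0.13 over all libraries and 0.76 after subtraction of group means. These values describe 16 libraries that fall into 4 groups and share their scaling.

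Among 70 further genes of the connected pathways, 69 were tested, and Pcyt1b had too few counts. For fasting in CD 9 rose and 13 fell (31.9%, beside 25.2% of all genes). For fasting in HFD 3 rose and 4 fell (10.1%, beside 8.86% of all genes), for HFD in fed mice 3 rose and 5 fell (11.6%, beside 7.50%), and for HFD in fasted mice 2 were higher and 5 lower (10.1%, beside 7.70%). In the interaction 3 were positive and 2 negative (7.25%, beside 2.59%). Medians of the log2 fold changes lay between -0.05 and 0.06 for all 69 in each of these 5.

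**Figure D4:**
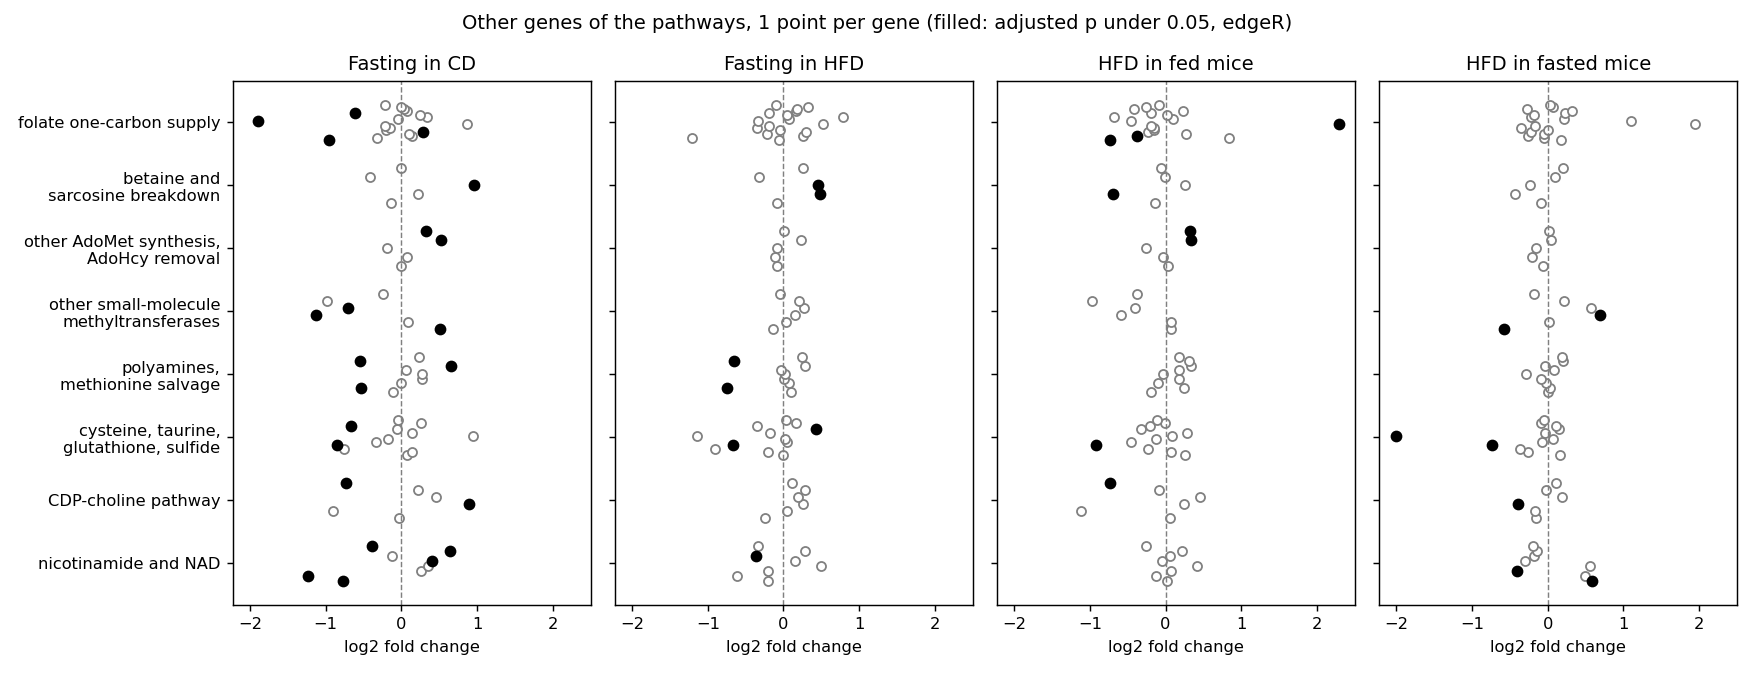
Log2 fold change of each of 69 other genes of the connected pathways, grouped by list, in 4 comparisons on 1 linear axis. Each point is a gene, and filled points passed an adjusted p of 0.05. Filled points are most frequent for fasting in CD, where 9 lie to the right and 13 to the left of 0.

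Of 6 other small-molecule methyltransferases, 2 fell and 1 rose with fasting in CD, with a median log2 fold change of -0.48, where 25.2% of all genes passed. Gamt, which makes creatine, fell by 1.13 on the log2 scale with fasting in CD (adjusted p = 0.000828) and was higher by 0.69 in HFD fast than in CD fast (adjusted p = 0.0418). The second call was lost in 9 of 16 refits with a library dropped, at worst without HFD fast 2 (adjusted p = 0.102), and with the replicate block, the 2 groups alone or both HFD libraries numbered 4 left out. Hnmt, which methylates histamine, fell by 0.71 with fasting in CD (adjusted p = 0.0314), a call lost in 5 of 16 refits with a library dropped, at worst without CD fast 2 (adjusted p = 0.0883). As3mt, which methylates arsenic, rose by 0.52 with fasting in CD and was lower by -0.58 on HFD in fasted mice (adjusted p = 0.0177 and 0.0264). The first call was lost in 3 of 16 refits, at worst without CD fed 3 (adjusted p = 0.0541), and the second in 6 of 16, at worst without CD fast 2 (adjusted p = 0.0641), with total counts and with the 2 groups alone.

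Among 18 genes of folate one-carbon supply, Aldh1l1, Mtr and Mthfd2 fell with fasting in CD and Ftcd, which links histidine breakdown to folate, rose by 0.28 (adjusted p = 0.0354, named after its value was seen), so that 4 of 18 passed beside 25.2% of all genes. Mtr, the methionine synthase that methylates homocysteine with folate, fell by 0.61 (adjusted p = 0.00108) from a level of 10.4 ± 0.489 CPM, while Bhmt rose. Aldh1l1, which removes one-carbon units as carbon dioxide, fell by 0.96 (adjusted p = 0.000584) and with HFD in fed mice by 0.73 (adjusted p = 0.0123). In that second comparison 1 of the 18 was higher and 2 lower, beside 7.50% of all genes. The others were Mthfd1l, higher with a log2 fold change of 2.29 from a low level of 0.796 CPM in CD fed (adjusted p = 0.0321), and Amt, with -0.37 (adjusted p = 0.0299), both named after their values were seen. Mthfd2 fell by 1.89 (adjusted p = 0.00328) at a low level, 1.85 ± 0.945 CPM in CD fed. Of 5 genes of betaine and sarcosine breakdown, 1 rose with fasting in CD, 2 rose with fasting in HFD and 1 fell with HFD in fed mice. These counts stand beside 25.2%, 8.86% and 7.50% of all genes. The median log2 fold change of the 5 for fasting in CD was -0.001. Etfdh, which passes on electrons of this and other pathways, rose with fasting by 0.95 in CD (adjusted p = 1.9e-05) and 0.46 in HFD (adjusted p = 0.0119). Dmgdh, which demethylates dimethylglycine, the product of Bhmt, rose by 0.48 with fasting in HFD (adjusted p = 0.0349) and fell by 0.69 with HFD in fed mice (adjusted p = 0.00628). Its rise was lost in 5 of 16 refits with a library dropped, at worst without HFD fast 2 (adjusted p = 0.0893), and with no filter, the 2 groups alone, the replicate block or both HFD libraries numbered 4 left out.

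Of 12 genes of cysteine, taurine, glutathione and sulfide, 2 fell with fasting in CD, and 1 rose and 1 fell with fasting in HFD. With HFD 1 fell in fed mice and 2 in fasted mice. These counts stand beside 25.2%, 8.86%, 7.50% and 7.70% of all genes. Past cysteine, Ethe1, the mitochondrial persulfide dioxygenase, fell in each of the 4 comparisons. It fell by 0.86 and 0.67 with fasting in CD and HFD (adjusted p = 0.000171 and 0.00463). With HFD in fed and fasted mice it fell by 0.92 and 0.73 (adjusted p = 0.000502 and 0.00502). Its mean went from 61.9 CPM in CD fed to 20.6 CPM in HFD fast, with 34.2 and 32.8 CPM in CD fast and HFD fed. Sqor, which oxidises sulfide, fell by 0.67 with fasting in CD (adjusted p = 0.00700). Got1, an aspartate aminotransferase that also acts on cysteine, was lower by -2.01 on HFD in fasted mice (adjusted p = 0.0215), with libraries that overlapped, a call lost in 2 of 16 refits, at worst without CD fast 2 (adjusted p = 0.0618), and in a fit of the 2 groups alone. Of 9 genes of polyamine synthesis and methionine salvage, 1 rose and 2 fell with fasting in CD, beside 25.2% of all genes. With fasting in HFD 2 of the 9 fell, beside 8.86% of all genes. In polyamine synthesis, which draws on S-adenosylmethionine, Sms fell with fasting by 0.54 in CD and 0.65 in HFD (adjusted p = 0.0119 and 0.0125) and Amd1 by 0.53 and 0.75 (adjusted p = 0.0456 and 0.0218). The Amd1 call was lost in 11 of 16 refits with a library dropped in CD and in 5 of 16 in HFD, and the one in CD also with limma-voom and in a fit of the 2 groups alone. Odc1 rose by 0.65 with fasting in CD (adjusted p = 0.00625).

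Of 6 tested genes of the CDP-choline pathway, the other source of phosphatidylcholine, 1 rose and 1 fell with fasting in CD. With HFD 1 fell in fed mice and 1 in fasted mice. These counts stand beside 25.2%, 7.50% and 7.70% of all genes. Chkb rose by 0.89 with fasting in CD (adjusted p = 2.33e-05) and the choline transporter Slc44a1 fell by 0.73 (adjusted p = 0.000164). Slc44a1 also fell by 0.74 with HFD in fed mice (adjusted p = 0.000751), and Chkb was lower on HFD in fasted mice (log2 fold change -0.40, adjusted p = 0.0225), a call lost in 3 of 16 refits with a library dropped, at worst without HFD fast 4 (adjusted p = 0.0722), and with total counts, the 2 groups alone or both HFD libraries numbered 4 left out. Of 8 genes of nicotinamide and NAD, 2 rose and 3 fell with fasting in CD, and 1 fell with fasting in HFD. For HFD in fasted mice 1 was higher and 1 lower. These counts stand beside 25.2%, 8.86% and 7.70% of all genes. The aldehyde oxidases Aox1 and Aox3, which oxidise the product of Nnmt, fell by 0.77 and 1.23 with fasting in CD (adjusted p = 0.000655 and 0.00234), while Nnmt rose. Aox1 was higher by 0.59 on HFD in fasted mice (adjusted p = 0.0150), a call kept in all 16 refits with a library dropped and lost in a fit of the 2 groups alone. Nmnat3 rose by 0.64 with fasting in CD (adjusted p = 0.00237).

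Hepatocyte markers were abundant in all libraries, and their sum was lower in fasted libraries on HFD. The 6 markers summed to 103351 to 136254 CPM in CD fed, 85562 to 108719 in CD fast, 108464 to 137003 in HFD fed and 70312 to 101760 in HFD fast, with 1 of 6 falling with fasting on each diet. Alb supplied most of each sum, with 52371 to 112653 CPM over the 16 libraries. Apoa1 overlapped between HFD fed (6229 to 10284 CPM) and HFD fast (6740 to 7581 CPM). Counts of markers that passed stand beside 25.2% of all genes for fasting in CD, 8.86% for fasting in HFD and 7.70% for HFD in fasted mice. The 8 markers of hepatocytes around the central vein summed to 5474 to 8848 CPM in CD fed. In CD fast they summed to 12641 to 14943 CPM, with 2 of the 8 rising, 1 falling and a median log2 fold change of 0.18. Cyp2e1 supplied 4044 to 6399 CPM of this in CD fed and 8759 to 11598 CPM in CD fast. On HFD the sums were 5534 to 10940 CPM fed and 8628 to 17752 CPM fasted, which overlapped. With fasting in HFD 1 of the 8 rose, and the median log2 fold change was 0.40. The 8 markers of hepatocytes around the portal vein summed to 6670 to 7995 CPM in CD fed, 5996 to 7937 CPM in CD fast, 5100 to 8541 CPM in HFD fed and 3708 to 6367 CPM in HFD fast, with 2 of 8 lower on HFD in fasted mice. With fasting on CD, sums for other liver cells lay below those of all fed libraries for stellate cells (144 to 231 against 236 to 319 CPM, 7 markers) and endothelial cells (147 to 194 against 198 to 223 CPM, 5 markers). For Kupffer cells and macrophages they overlapped (144 to 226 against 217 to 372 CPM, 6 markers), and 2 markers of each of these 3 lists fell with fasting in CD. On HFD the stellate sums ran from 246 to 427 CPM fed and up to 428 CPM fasted, with the highest in the libraries numbered 4 but every HFD fast library above every CD fast library, the endothelial sums from 186 to 204 and from 179 to 236 CPM, and the Kupffer cell and macrophage sums from 226 to 321 and from 189 to 335 CPM. For HFD in fasted mice, where the estimates of the 10 genes were negative with the scaling used here and 7.70% of all genes passed, 1 of 7 stellate and 2 of 5 endothelial markers were higher, and the medians of the log2 fold changes were 0.69 for stellate, 0.43 for endothelial and 0.56 for Kupffer cell and macrophage markers. In the same comparison the medians were -0.28 for the 6 hepatocyte markers, -0.56 for those around the portal vein and 0.23 for those around the central vein. The 6 adipocyte markers, of which 2 had enough counts to test, had a median sum of 44.3 CPM in HFD fast and 104 CPM in HFD fast 2, where Cfd supplied 70.1 CPM and Adipoq 0.0680 CPM. Adipoq was highest in HFD fast 1 and HFD fed 2, at 0.976 and 0.525 CPM. Lep was at 0 in every CD library. The part of these differences in the changes of the 10 genes was not tested. In bulk tissue fewer cells of a type and less RNA per cell cannot be told apart.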

How the data were processed

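Liver RNA-seq counts of 16 libraries were analysed. The authors deposited whole-number counts per Ensembl gene without normalization. According to the methods and the submitters' processing notes, polyadenylated RNA was prepared with NEBNext Ultra II, aligned to GRCm38 (mm10) with TopHat2 2.0.11 under a first-strand library type and counted with featureCounts. The sources name CASAVA for demultiplexing with different versions. The annotation release and the options of featureCounts for strand and multiply mapped reads are not given in the sources used here. Poly(A) selection and gene counts leave splice isoforms unresolved.

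Libraries were grouped and numbered from their labels. Symbols matched 45143 of 46078 genes, and positions and exon lengths came from GENCODE M21 of GRCm38. In R 4.3.3, edgeR 4.0.16 (filterByExpr, TMM, glmQLFit, glmQLFTest) was fitted to 15075 genes with 1 coefficient per group, which left 12 residual degrees of freedom and a coefficient of variation of 19.2%. P-values were adjusted over these genes by the Benjamini-Hochberg method and called at 0.05. Log2 CPM used a prior count of 2. In counts simulated for fasting in CD over 15046 genes, edgeR recovered 73.5% of 200 genes changed by mixed folds with 1.34% of its calls false, and DESeq2 76.5% with 10% false. Alternatives were DESeq2 1.42.0, limma-voom (limma 3.58.1), DESeq2 size factors, total counts, no filter, a mean of at least 10 counts, only the 2 groups compared, a replicate block, an adjusted p of 0.01 and each library left out, and, added after seeing the data, both HFD libraries numbered 4 left out. The named genes were the 10, the 3 genes of each pathway list with the smallest p among those that passed plus Mat2a, genes overlapping the 10, and the 3 most correlated with each. The members, lists and tests were chosen with earlier results of these data known, and give no independent support. One gene of a pathway list is not reported here. Sequence runs of 50 bases shared with other genes were counted in the GENCODE transcripts, and promoter windows of 250 bases were read from RefSeq on GRCm38.p6. Depths limit counting error only, since reads carry no molecular identifiers.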

Additional observations from a re-analysis of the deposited data

Results flagged for a closer look

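Within groups of 4 libraries, 52 groups of values were examined for a library far from the others, and 3 were found, where about 1 in 20 comes up by chance. Gnmt stood at 2065 CPM in CD fed 2, above the other CD fed libraries. Pemt stood at 166 CPM in CD fast 1 and Mat2a at 83.3 CPM in CD fast 2, each below the others of its group.

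The fasting change differed between diets, in the interaction term of edgeR's quasi-likelihood test with adjustment over all genes, for 1 of the 10 genes and 5 genes of the connected pathways. The change was lower on HFD for Mat1a (-1.13, SE 0.27, adjusted p = 0.0391), Mat2b (-0.31, adjusted p = 0.0463) and Chkb (-0.64, adjusted p = 0.0256). It was higher on HFD, with a fall in CD that passed and a change in HFD that did not, for Aldh1l1 (0.91, adjusted p = 0.0425), Gamt (1.28, adjusted p = 0.0257) and Slc44a1 (0.85, adjusted p = 0.0114). Slc44a1 passed in all 16 refits with a library dropped, whereas Mat1a, Mat2b and Aldh1l1 failed in 11, 12 and 13 of them, Gamt in 3 and Chkb in 1. Without both HFD libraries numbered 4, Mat1a, Aldh1l1, Mat2b and Gamt did not pass, and with the replicate block Mat1a and Mat2b did not (adjusted p = 0.0506 for Mat1a). Mat2b also failed with total counts and with no filter on low counts.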

How the results depend on the processing

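Of 1240 values of the 10 genes under the alternatives, 1153 kept their direction and their side of the threshold, 44 no longer passed, 16 newly passed and 27 changed direction. The number of the 10 that passed for fasting in CD, 8, was 7 to 8 with each library left out and moved under no alternative by over 1.5 times. For fasting in HFD 5 passed, but 3 with no filter, 3 with only the 2 groups compared, 3 without both HFD libraries numbered 4, 2 at an adjusted p of 0.01 and 2 to 5 with a library left out, the lowest without HFD fast 1 or HFD fed 1. For HFD in fed mice 3 passed, but 5 with the 2 groups alone, 1 at 0.01 and 1 to 4 with a library left out, the lowest without CD fed 2. For HFD in fasted mice 2 passed, but 1 with total counts, 0 with the 2 groups alone, 1 at 0.01 and 2 to 4 with a library left out, the highest without CD fast 3. For the interaction 1 passed, but 3 with DESeq2 (Bhmt and Cbs added, adjusted p = 0.0499 and 0.0401), 2 with total counts, 0 with the replicate block (Mat1a, adjusted p = 0.0506), 0 without both HFD libraries numbered 4, 0 at 0.01 and 0 to 2 with a library left out. Calls over all genes fell at 0.01 as well, from 3797 to 1859 for fasting in CD and from 1335 to 331 for fasting in HFD. They fell from 1131 to 338 for HFD in fed mice, from 1161 to 217 for HFD in fasted mice and from 390 to 31 for the interaction.

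Direction changed with total counts for Pemt (fasting in HFD 0.023, HFD in fasted mice 0.11) and Chdh (HFD in fasted mice 0.074, interaction 0.082), and with no filter for Chdh (interaction 0.0055). Without both HFD libraries numbered 4 it changed for Pemt (fasting in HFD 0.049, HFD in fasted mice 0.017) and Chdh (interaction 0.051). With a library left out, fasting in HFD ranged from -0.10 to 0.15 for Gnmt, -0.093 to 0.045 for Pemt, -0.033 to 0.47 for Nnmt and -0.11 to 0.12 for Ahcy, HFD in fed mice from -0.15 to 0.036 for Cbs, HFD in fasted mice from -0.11 to 0.016 for Pemt, and the interaction from -0.029 to 0.15 for Bhmt2 and -0.055 to 0.036 for Chdh. None of these had passed. The difference in the log2 ratio of Mat1a to Mat2a ran between 1.03 and 1.38 for fasting in CD and between -0.79 and -0.44 for HFD in fasted mice, and passed after adjustment under no alternative run, most of which have too few libraries to pass.

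Over all genes, fasting in HFD gave 1335 calls, 1985 with DESeq2, 948 with no filter and 1014 with the 2 groups alone. HFD in fasted mice gave 1161 calls, 2101 with total counts and 1967 with DESeq2. It gave 645 without both HFD libraries numbered 4 and 90 with the 2 groups alone. HFD in fed mice gave 1131 calls, 1768 with DESeq2 and 1121 with the 2 groups alone. The interaction gave 390, 1020 with DESeq2, 440 with total counts and 226 without both HFD libraries numbered 4. With a library left out, calls over all genes fell to 505 for fasting in HFD (without HFD fed 1), 535 for HFD in fasted mice (without HFD fast 4), and, both without CD fed 2, 147 for the interaction and 514 for HFD in fed mice. The cause of these changes was not tested. Whether replicate numbers pair the libraries was not settled, and the block was not taken as a pairing: correlations of same-numbered libraries ran from -0.24 to 0.66, the highest between HFD fed 4 and HFD fast 4, 7 of 16 were over 0.1, and for fasting in CD each library matched best its own number, as did 1 of 4 in each other comparison. With the replicate block 8, 5, 3 and 2 of the 10 passed in the 4 pairwise comparisons. Over all genes the block gave 3948 calls when CD mice were fasted and 1440 when HFD mice were. Between diets it gave 1207 calls in the fed state, 1290 in the fasted state and 359 for the interaction. The 10 genes had at least 1634 counts in each library.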
